A study of Oryctolagus cuniculus with 16 samples.

Results

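The AP-1 and immediate early transcription factors of the rabbit femoral head were chosen by name: FOS, FOSB, FOSL1 and FOSL2 of the FOS family, JUN, JUNB and JUND of the JUN family, ATF3 and EGR1. Of these 9 symbols, 7 were found in the table of 20255 genes, and all 7 passed the filter on low counts that left 15305 genes for testing. JUNB and JUND were not found under those symbols and are not analysed here, so the JUN family is represented by JUN alone. Total RNA was sequenced from femoral head tissue of a Perthes group (5 rabbits) and a control group (3 rabbits). The Perthes model was made in rabbits aged 8 weeks by tying off the femoral neck with a suture and cutting the ligamentum teres, which closes the blood supply of the epiphysis, the bony end of the femur. The labels call the controls wild type. The study's methods say that the rabbits bought were wild type and name no other genotype for either group. The sources used here give neither a sham operation, the age of the controls, nor the interval between surgery and tissue collection. Each library is taken as 1 rabbit, and no label says that the rabbits came from separate litters or operation days, so the p-values measure only the spread between these 8 libraries. The miRNA libraries of the same study were not used.

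AP-1 is a pair of basic leucine zipper proteins, in which a FOS, JUN or ATF protein joins a partner through the zipper and both bind DNA next to it. JUN proteins pair with themselves or with FOS proteins, whereas FOS proteins need a partner from another family. FOS, FOSB, JUN and EGR1 are immediate early genes, which are transcribed within minutes of a growth factor, cytokine, stretch or stress signal without new protein synthesis, and whose mRNAs are short-lived. In bone, FOS is required for osteoclasts to form, FOSL1 and FOSL2 act in osteoblasts and matrix production, and JUN takes part in the development of the axial skeleton. ATF3 is a stress-induced member of the ATF family, and EGR1 is a zinc finger protein outside AP-1 that is induced by the same signals.

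Total counts ranged from 26757087 to 29461482 per library, and 1 count corresponded to between 0.0333 and 0.0374 CPM, the count scaled to the size of the library, after normalization by TMM, the trimmed mean of M-values. The first principal component held 56.1% of the variance and separated the groups, with Perthes rabbit 2 the nearest to the controls at 5.21, against 49.0 in control rabbit 3 and -93.7 in Perthes rabbit 1. Perthes rabbit 4 stood apart on the second component, which held 13.1%, at -78.4, against -7.51 to 27.5 in the other libraries. Bone and cartilage genes marked the tissue in every library: the summed level of 6 chondrocyte genes was 34254 to 139100 CPM, and that of 8 osteoblast and osteocyte genes was 1139 to 3048 CPM. Markers of marrow cells differed between the groups. The 6 neutrophil genes summed to 25.1 to 1508 CPM in the Perthes rabbits and 5747 to 18652 CPM in the controls, and the 7 erythroid genes to 32.5 to 2260 CPM and 4817 to 5450 CPM. The 7 macrophage genes summed to 460 to 1724 CPM in the Perthes rabbits and 385 to 447 CPM in the controls. None of these markers was at 0 in all libraries.

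ATF3 and JUN rose in the Perthes femoral heads, FOSL2 lay above the controls in each Perthes rabbit without passing the test, and FOS, FOSB and EGR1 overlapped between the groups. FOSL1 was scarce and uneven. With edgeR's quasi-likelihood test and Benjamini-Hochberg adjustment over the 15305 genes, 2 of the 7 members were called higher at an adjusted p below 0.05 and 0 were called lower, and 3 members had an unadjusted p below 0.05, all higher, the third being FOSL2. DESeq2 called these 3 higher and 0 lower. Over all genes tested, edgeR called 6.21% higher and 8.86% lower, and 15.3% were higher and 16.6% lower at an unadjusted p below 0.05. Of the 17451 genes to which DESeq2 gave an adjusted p, it called 9.74% higher and 11% lower. In 3 members each Perthes library was above each control library, a pattern found in 11.2% of all genes, and in 0 members was it below, a pattern found in 13.9%. The median log2 fold change of the members was 0.70, beside 0.02 over all genes tested. In bulk tissue, more cells that express a gene and more RNA per cell cannot be told apart. Without control rabbit 2, 0 genes of the whole table were called, with 1624 higher and 2098 lower at an unadjusted p below 0.05, so no edgeR call given below held without that library. Of the genes called, 58.8% were lower in the Perthes rabbits with TMM scaling and 71.5% with scaling by library totals, which called the same 2 members.

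**Figure D1:**
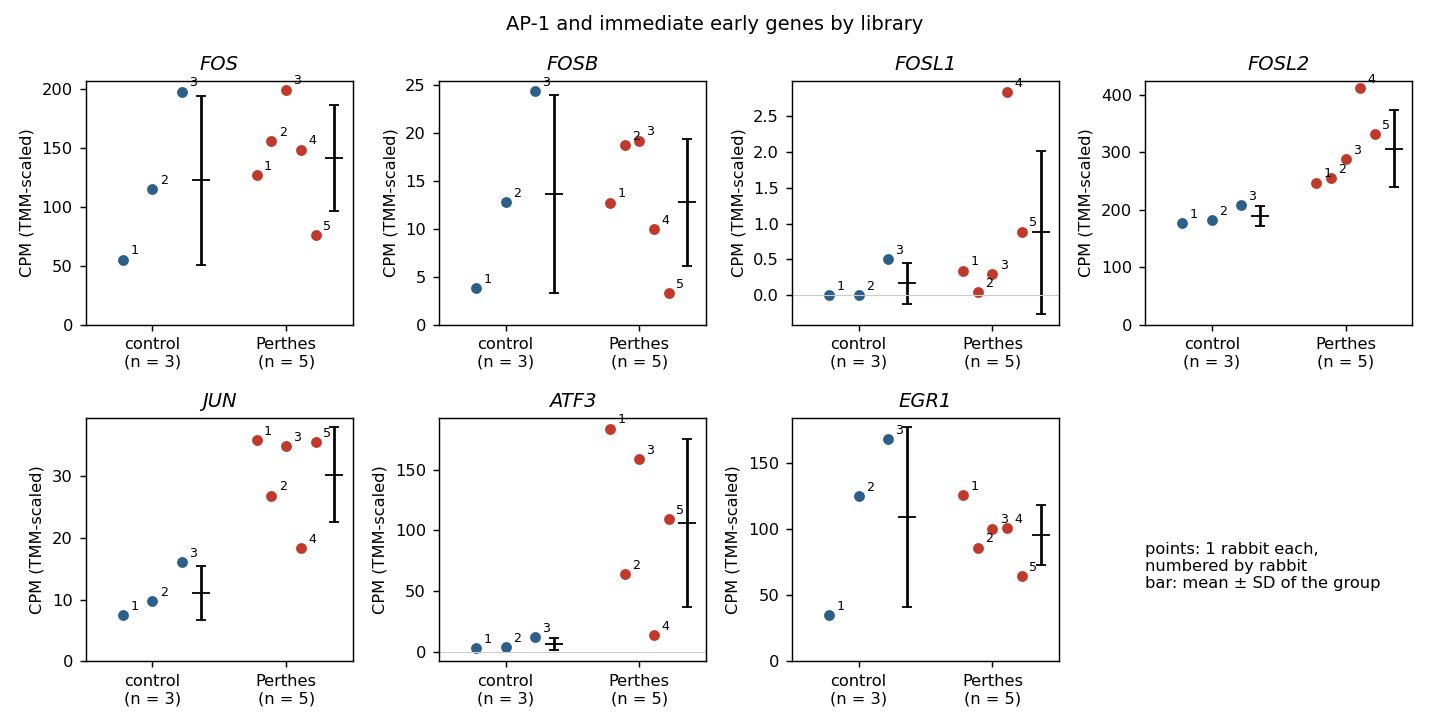
Scaled level (CPM, linear axis) of each of the 7 members in the 3 control and 5 Perthes rabbits, with 1 point per rabbit and a bar for the group mean ± SD. The points of the 2 groups do not overlap for FOSL2, JUN and ATF3, and control rabbit 3 is the highest control in each panel.

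ATF3, the stress-induced member, had the largest difference. It stood at 184, 63.7, 159, 13.5 and 109 CPM in Perthes rabbits 1 to 5 and at 2.79, 3.98 and 12.1 CPM in control rabbits 1 to 3. The groups did not overlap, but the lowest Perthes library, rabbit 4, lay just above the highest control, rabbit 3. The Perthes mean was 106 ± 69.2 CPM (SD, n = 5) and the control mean 6.30 ± 5.09 CPM (SD, n = 3). This is a log2 fold change of 4.07 ± 0.90 (SE) or 16.7-fold, with an edgeR adjusted p of 0.0210. By size of fold change ATF3 ranked 67 of the 15305 genes, and by p-value it ranked 1015. The adjusted p was 0.0872 without control rabbit 1 and 0.0868 without control rabbit 2, with log2 fold changes of 3.71 and 3.82. Leaving out any other single library kept the call, and the 8 fold changes ran from 3.71 to 4.96 on the log2 scale.

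JUN, the member that can pair both with itself and with the FOS proteins, was 35.7, 26.8, 34.8, 18.3 and 35.4 CPM in the Perthes rabbits and 7.47, 9.70 and 16.0 CPM in the controls. As for ATF3, Perthes rabbit 4 was the lowest of its group and control rabbit 3 the highest of the controls, and these neighbours were the closest pair between the groups. The means were 30.2 ± 7.64 CPM (SD, n = 5) and 11.1 ± 4.42 CPM (SD, n = 3), which gave a log2 fold change of 1.45 ± 0.32 (SE) or 2.73-fold, with an edgeR adjusted p of 0.0201. The adjusted p was 0.0501 without Perthes rabbit 3, 0.0781 without control rabbit 1 and 0.0848 without control rabbit 2. The log2 fold change stayed between 1.24 and 1.82 in all 8 fits with 1 library left out.

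FOSL2, a FOS family member that lacks the strong activation domain of FOS, was the steadiest of the members among the controls. It stood at 177, 182 and 208 CPM in control rabbits 1 to 3 and at 246, 255, 287, 411 and 331 CPM in Perthes rabbits 1 to 5. Every Perthes library was above every control library, and Perthes rabbit 4, the lowest of its group for ATF3 and JUN, was the highest for FOSL2. The means were 306 ± 67.6 CPM (SD, n = 5) and 189 ± 16.8 CPM (SD, n = 3). Its log2 fold change came to 0.70 ± 0.21 (SE), or 1.62-fold, with an edgeR adjusted p of 0.0566 that missed the threshold. DESeq2 gave an adjusted p of 0.0167, and edgeR without Perthes rabbit 1 gave 0.0480. In the exact two-sided permutation test, ATF3, JUN and FOSL2 each reached p = 0.0357, the smallest value that 56 divisions of the libraries allow.

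FOS, the prototype of the immediate early genes, was 126, 155, 199, 148 and 75.6 CPM in the Perthes rabbits and 54.9, 115 and 197 CPM in the controls. The controls alone spanned nearly the range of all 8 libraries, so that control rabbit 1 was the lowest of all and control rabbit 3 lay above 4 of the 5 Perthes rabbits. The means were 141 ± 45.0 CPM (SD, n = 5) and 122 ± 71.5 CPM (SD, n = 3), which gave a log2 fold change of 0.20 ± 0.41 (SE), with an edgeR adjusted p of 0.766. Without control rabbit 1 its sign turned, to -0.15.

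FOSB, the close paralog of FOS, was 12.7, 18.7, 19.2, 9.97 and 3.27 CPM in the Perthes rabbits and 3.79, 12.8 and 24.4 CPM in the controls. Perthes rabbit 5 and control rabbit 1 were both low, and control rabbit 3 was the highest library. The log2 fold change was -0.10 ± 0.63 (SE), with an edgeR adjusted p of 0.930. It turned to 0.15 without Perthes rabbit 5 and to 0.62 without control rabbit 3.

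EGR1, the zinc finger factor, was 126, 86.1, 100, 101 and 64.3 CPM in the Perthes rabbits and 35.0, 125 and 168 CPM in the controls. The 5 Perthes libraries all lay between control rabbits 1 and 3. The means were 95.6 ± 22.6 CPM (SD, n = 5) and 109 ± 68.0 CPM (SD, n = 3), which gave a log2 fold change of -0.20 ± 0.43 (SE), with an edgeR adjusted p of 0.783. Without control rabbit 3 it was 0.26. For FOS, FOSB and EGR1 the missed threshold does not show equal levels, since their standard errors leave room for changes in either direction.

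FOSL1, the FOS family member most often linked with migrating and transformed cells, was near the limit of detection. Its counts were 10, 1, 8, 78 and 26 in Perthes rabbits 1 to 5 and 0, 0 and 15 in control rabbits 1 to 3. A count of 0 allows a level of up to 0.107 CPM in control rabbit 1 and 0.106 CPM in control rabbit 2, which covers counting error only. Perthes rabbit 4 alone held 63.4% of the counts of the Perthes group, and control rabbit 3 all of those of the controls. The log2 fold change of 2.34 ± 1.44 (SE) had an edgeR adjusted p of 0.293, and it was 1.18 without Perthes rabbit 4.

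The members fell into different orders of libraries. FOS, FOSB and EGR1 shared Perthes rabbit 5 as the lowest Perthes library, ATF3 and JUN shared rabbit 4 as the lowest and rabbit 1 as the highest, and FOSL1 and FOSL2 shared rabbit 4 as the highest. The controls had 1 order: control rabbit 1 was the lowest, or tied with rabbit 2 at 0 counts for FOSL1, and control rabbit 3 was the highest in 7 of 7 members. That order was seen in 27.0% of all genes tested. Among 30 tested genes of a list of other immediate early genes, 13 had it, or 43.3%.

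The controls were far apart for most members. For 5 of the 7, FOS, FOSB, FOSL1, ATF3 and EGR1, the SD of the log2 level over the 3 controls was above the 90th percentile of all genes, at 0.93 for FOS and 1.20 for EGR1 beside a median of 0.31 over all genes. JUN lay at the 77.9th percentile and FOSL2 at the 14.8th. Among the Perthes rabbits the SD was 0.52 for FOS and 0.36 for EGR1 beside a median of 0.37. In the list of other immediate early genes 5 of 30 also exceeded the 90th percentile in the controls, namely EGR2, EGR3, NR4A1, NR4A2 and NR4A3, which are the zinc finger and orphan nuclear receptor relatives of this response and were singled out after their values were seen. NR4A1, an orphan nuclear receptor, was 7.50, 22.5 and 46.0 CPM in control rabbits 1 to 3 and 16.5 to 38.3 CPM in the Perthes rabbits. EGR2, a zinc finger factor of the EGR family, was 4.47, 11.2 and 25.7 CPM in the controls and 6.22 to 22.8 CPM in the Perthes rabbits. Neither differed between the groups by the test, with log2 fold changes of -0.02 ± 0.50 (SE) and -0.02 ± 0.61 (SE) and edgeR adjusted p of 0.983 and 0.988. EGR3 was at -0.57 ± 0.50 (SE) and NR4A2 at -0.12 ± 0.50 (SE), with edgeR adjusted p of 0.461 and 0.887. NR4A3 had the largest log2 fold change of the 5, 2.27 ± 0.82 (SE), and its groups overlapped. Its edgeR p was 0.0217 unadjusted and 0.0931 adjusted.

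**Figure D2:**
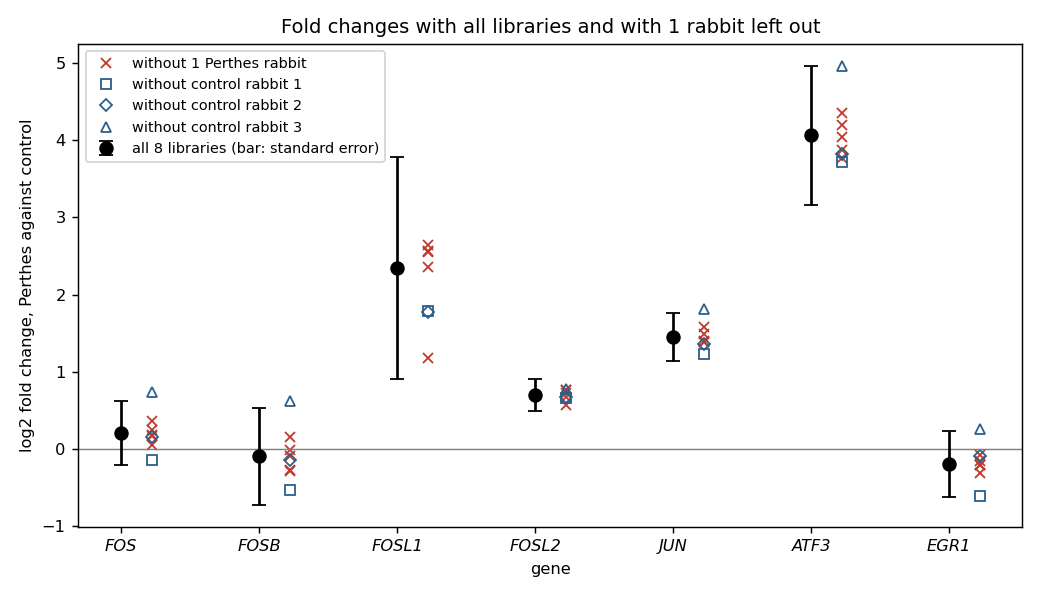
Log2 fold change (Perthes against control) of each member with all 8 libraries (black, bar: standard error) and with 1 rabbit left out (red crosses for a Perthes rabbit, blue open symbols for each control). FOS, FOSB and EGR1 lie on both sides of 0 depending on the rabbit left out, whereas ATF3, JUN and FOSL2 stay above it; the fit of FOSL1 without control rabbit 3 is not drawn because the remaining controls hold 0 counts.

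Ratios of 2 members within a library asked whether the make-up of the family shifted, free of the scaling between libraries. They are log2 ratios of counts, which also carry the unequal lengths of the transcripts, so only their differences between libraries are read. Of the 7 ratios planned, 5 could be formed without JUNB and JUND, and 0 passed after adjustment over the 5. The smallest permutation p that the libraries allow is 0.0357. A ratio with its groups fully apart could therefore pass only if most of the 5 ratios were apart too. The missed threshold thus does not show that the make-up stayed the same. ATF3 over JUN was 2.36, 1.25, 2.19, -0.43 and 1.62 in the Perthes rabbits and -1.42, -1.28 and -0.40 in the controls. Perthes rabbit 4 fell among the controls, and the other 4 Perthes rabbits were above all of them. The difference was 2.43 on the log2 scale, or 5.38-fold, with an exact two-sided permutation p of 0.0714, adjusted to 0.357. For FOSL1 over FOS no difference is read, because FOSL1 had 0 counts in control rabbits 1 and 2 and 1 count in Perthes rabbit 2, where the ratio is set by the prior count of 0.5. Its ratio was -5.70 and -6.39 in Perthes rabbits 4 and 5, above the remaining libraries. FOSL2 over FOS differed by 0.35, EGR1 over FOS by -0.27 and FOSB over FOS by -0.29, each with an adjusted permutation p of 0.536, and all 3 overlapped between the groups.

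**Figure D3:**
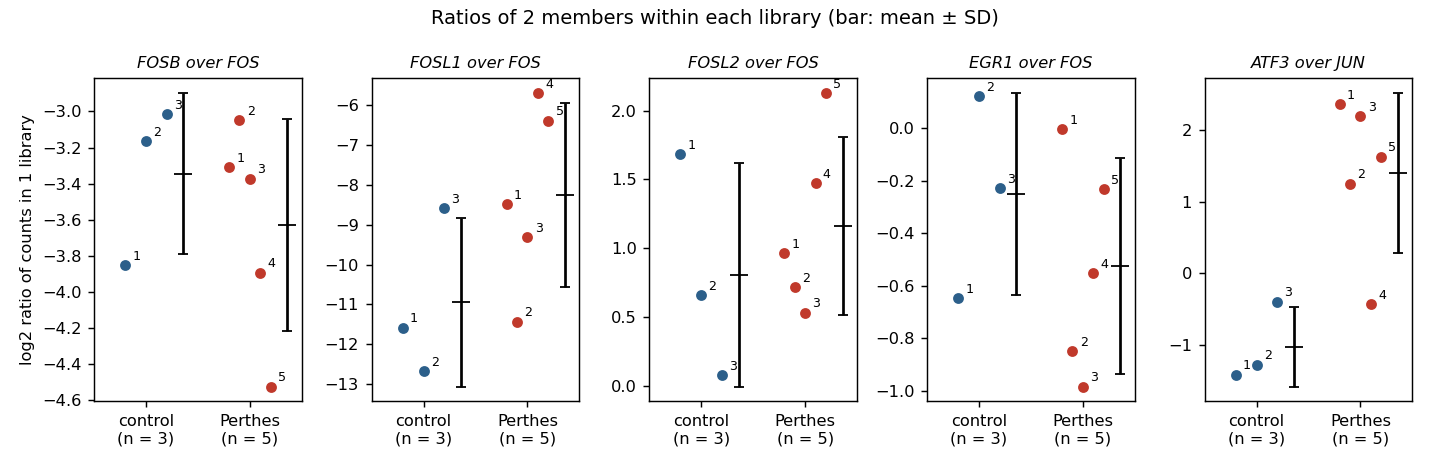
Log2 ratio of the counts of 2 members within each library, for 5 ratios, in the 3 control and 5 Perthes rabbits, with 1 numbered point per rabbit and a bar for the mean ± SD. For ATF3 over JUN, 4 Perthes rabbits lie above the controls and rabbit 4 lies among them; the FOSL1 ratios of control rabbits 1 and 2 rest on the prior count, since FOSL1 has 0 counts there.

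Some markers of macrophages, of osteoclasts and of fibroblasts and repair stroma were higher in the Perthes rabbits, as ATF3 and JUN were. Their order of rabbits matched that of ATF3 and JUN only in part. The 7 macrophage genes summed to 1724, 920, 1277, 460 and 1622 CPM in Perthes rabbits 1 to 5, which is the order of the Perthes rabbits for JUN, and for ATF3 save that rabbits 3 and 5 change places. In control rabbits 1 to 3 they summed to 447, 410 and 385 CPM, the reverse of the order of both genes. Of the 7 macrophage genes, 4 were called higher (CD14, CD68, CSF1R and MRC1) and 0 lower, beside 6.21% and 8.86% of all genes. Of the 8 genes of fibroblasts and repair stroma, 8 had a positive log2 fold change with a median of 1.14. Among them 3 were called higher (COL3A1, POSTN and THY1) and 0 lower, beside the same shares of 6.21% and 8.86%. COL3A1, the type III collagen of young and healing stroma, was 20732, 11736, 12707, 16274 and 16016 CPM in the Perthes rabbits and 780, 1634 and 6747 CPM in the controls, and all 3 called genes were lowest in control rabbit 1 and highest in control rabbit 3 among the controls, as ATF3 and JUN were. The sum of the 8 stromal genes overlapped, at 70674 to 158296 CPM in the Perthes rabbits and 74306 to 94031 CPM in the controls. The 6 osteoclast genes summed to 3290, 3089, 3188, 1529 and 4369 CPM in Perthes rabbits 1 to 5. In control rabbits 1 to 3 they summed to 717, 1259 and 1231 CPM. Of these 6 genes, 2 were called higher (CTSK and DCSTAMP) and 0 lower, again beside 6.21% and 8.86% of all genes. Perthes rabbit 4 and control rabbit 1 were lowest, as for ATF3 and JUN, but Perthes rabbit 5 was highest, unlike for them. Control rabbits 2 and 3 were nearly level in this sum. CTSK, its largest part, was highest in control rabbit 3 among the controls, as ATF3 and JUN were. The part of macrophage, osteoclast or stromal cells in the rise of ATF3 and JUN was not tested. Perthes rabbit 4, the highest for FOSL2 and FOSL1, also had the highest sum of the 6 chondrocyte genes, 139100 CPM against 34254 to 76928 CPM in the other Perthes rabbits, and of the osteoblast and osteocyte genes, 3048 CPM against 1667 to 2211 CPM. The part of this makeup in the values of rabbit 4 was not tested either.

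The genes most like each member were found by the root mean square (RMS) difference of log2 CPM, centred on the mean of each gene, over the 8 libraries among 12308 genes with a symbol. The nearest to JUN were AHNAK (RMS 0.162), a giant scaffold protein, ITIH3 (0.170), a hyaluronan-binding heavy chain, and FBXO32 (0.185), a ubiquitin ligase subunit. The nearest to ATF3 were CD248 (0.411), a stromal and pericyte surface protein, CCDC141 (0.527) and PGBD5 (0.546). FOSL2 had the closest neighbours of all, EOLA1 (0.0730), AOPEP (0.102) and PRICKLE1 (0.103), in a pattern of small range. FOS was nearest to SYBU (0.179), DNAH6 (0.215) and AK5 (0.226), and EGR1 to ART3 (0.192), COL24A1 (0.203) and DIO2 (0.212). FOSB was nearest to PCDHB2 (0.376), EGFLAM (0.464) and FOS itself (0.484), the only member found among the nearest 3 of another. FOSL1, with its few counts, had no neighbour closer than FN1 at 0.657, followed by BDKRB1 (0.666) and CLDN4 (0.679). Between members, FOS and EGR1 were the closest pair at 0.372, and JUN and ATF3 differed by 1.44.

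Of 21 other basic leucine zipper genes tested, which include partners and rivals of AP-1, 3 were called higher and 0 lower. Over all genes the shares were 6.21% and 8.86%. The median log2 fold change of the list was 0.19. CEBPB, a factor of inflammatory and adipose gene expression, rose to 32.7 ± 7.20 CPM in the Perthes rabbits (SD, n = 5) from 12.8 ± 5.49 CPM in the controls (SD, n = 3), a log2 fold change of 1.35 ± 0.29 (SE) and an edgeR adjusted p of 0.0202. CREM, the cyclic AMP responsive factor, rose by 1.30 ± 0.22 (SE) on the log2 scale, from 3.08 to 7.60 CPM, with an adjusted p of 0.0133. At an unadjusted p below 0.05, 5 were higher and 1 lower, beside 15.3% and 16.6% of all genes. DESeq2 called 4 higher and 1 lower, beside 9.74% and 11%. The count of genes called higher was 1 without Perthes rabbit 3, 0 without control rabbit 2 and 1 without control rabbit 3, and 1 gene was called lower without Perthes rabbit 1 or control rabbit 3.

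Of 30 other immediate early genes tested, 4 were called higher and 1 lower, beside 6.21% and 8.86% of all genes. The median log2 fold change of the list was 0.18. SGK1, a kinase induced by serum and glucocorticoids, rose to 88.9 ± 19.7 CPM in the Perthes rabbits (SD, n = 5) from 40.0 ± 10.4 CPM in the controls (SD, n = 3), by 1.15 ± 0.24 (SE) on the log2 scale, with an edgeR adjusted p of 0.0182. GADD45G, a growth arrest gene, rose by 1.07, RHOB, a small GTPase, by 0.99, and CCN1, a matricellular protein, by 0.92 on the log2 scale, with adjusted p of 0.0293, 0.0216 and 0.0484. CCN1 had an adjusted p of 0.0621 when libraries were scaled by their totals alone. PPP1R15A, which returns translation to normal after stress by guiding a phosphatase to eIF2 alpha, fell to 16.6 ± 7.14 CPM in the Perthes rabbits (SD, n = 5) from 48.3 ± 7.39 CPM in the controls (SD, n = 3), by 1.54 on the log2 scale, with an adjusted p of 0.0192. The neutrophil and erythroid sums were lower in the same libraries, and their part in its fall was not tested. The count called higher was 1 without Perthes rabbit 3 or 5 and 0 without control rabbit 1 or 2. The count called lower was 0 without any 1 of these 4 and 2 without Perthes rabbit 4.

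Among 32 tested kinases and ternary complex factors, which carry the signal to the immediate early genes, 5 were called lower and 0 higher. Over all genes the shares were 8.86% and 6.21%. The median log2 fold change of the list was -0.17. MAPK13, the delta form of p38, fell to 6.27 ± 3.00 CPM in the Perthes rabbits (SD, n = 5) from 45.7 ± 34.4 CPM in the controls (SD, n = 3), with a log2 fold change of -2.87 ± 0.53 (SE) and an edgeR adjusted p of 0.0136. RPS6KA1, the kinase RSK1, had a log2 fold change of -1.47, MAP2K3, a kinase that activates p38, of -1.31, and BRAF, a RAF kinase, of -1.08, with adjusted p of 0.0298, 0.0150 and 0.0132. RPS6KA5, a kinase of chromatin and CREB, was the fifth at -0.86 with an adjusted p of 0.0308, named after its value was seen. The neutrophil and erythroid marker sums given above were lower in the same libraries, and their part in these values was not tested. At an unadjusted p below 0.05, 11 were lower and 2 higher, beside 16.6% and 15.3% of all genes. DESeq2 called 9 lower and 1 higher, beside 11% and 9.74% of all genes. The count called lower was 3 without Perthes rabbit 3 or 5 and 0 without control rabbit 1 or 2, and 1 gene was called higher without Perthes rabbit 4.

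Of 21 feedback regulators tested, phosphatases and inhibitors that end the signal, 0 were called higher or lower by edgeR, beside 6.21% and 8.86% of all genes. At an unadjusted p below 0.05, 6 were higher and 1 lower, beside 15.3% and 16.6% of all genes. DESeq2 called 3 higher and 1 lower, beside 9.74% and 11%. The median log2 fold change of the list was 0.44. The largest values were those of DUSP14, a dual specificity phosphatase, at 1.60 ± 0.62 (SE) with an edgeR adjusted p of 0.112, and SOCS3, an inhibitor of cytokine receptors, at 1.09 ± 0.39 (SE) with an adjusted p of 0.0923. Among them 1 gene was called higher by edgeR without Perthes rabbit 2, and 1 was called lower without Perthes rabbit 1.

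Of 24 tested genes that textbooks list as targets of AP-1, 7 were called higher and 0 lower, beside 6.21% and 8.86% of all genes. In the list 23 genes had a positive log2 fold change, and the median was 1.47. At an unadjusted p below 0.05, 12 were higher and 0 lower, beside 15.3% and 16.6% of all genes. DESeq2 called 10 higher and 0 lower, beside 9.74% and 11%. The 3 largest fold changes of the list were those of matrix metalloproteinases. MMP12, the macrophage elastase, was 3785, 619, 2078, 64.5 and 2607 CPM in Perthes rabbits 1 to 5 and 0.0715, 0.141 and 4.99 CPM in control rabbits 1 to 3, with an edgeR adjusted p of 0.0173. Perthes rabbit 4 was again the lowest of its group and control rabbit 3 the highest of the controls, as for ATF3 and JUN.

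MMP1, the interstitial collagenase, was 31.3, 15.9, 27.8, 69.6 and 257 CPM in the Perthes rabbits and at most 0.599 CPM in the controls, with an adjusted p of 0.0134. MMP3, stromelysin 1, was 15.2, 1.91, 2.31, 131 and 37.7 CPM and at most 0.299 CPM, with an adjusted p of 0.0258. The fold changes of these genes rest on a few control counts and are not read closely. CCL2, a chemokine that attracts monocytes, was 1.51 ± 0.75 CPM (SD, n = 5) and at most 0.200 CPM in the controls, with an adjusted p of 0.0176. The other 3 called, named after their values were seen, were PLAU, the urokinase, at a log2 fold change of 2.60, ITGAX, an integrin of myeloid cells, at 2.64, and HMOX1, heme oxygenase, at 2.41. MMP12, CCL2, ITGAX and HMOX1 are also expressed by macrophages, whose marker sum is given above. The count was 1 without control rabbit 1 and 0 without control rabbit 2, and 1 gene was called lower without Perthes rabbit 4.

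A list on osteoclast formation held receptors, adaptors and stromal signals of the lineage beside genes of the mature cell. CTSK, the collagen-degrading protease of that cell, was 2546, 2350, 2280, 991 and 3773 CPM in the Perthes rabbits and 404, 783 and 831 CPM in the controls. Of 17 tested, 4 were called higher and 0 lower, beside 6.21% and 8.86% of all genes, and 13 were not called. In the list 15 genes had a positive log2 fold change and 2 a negative one, with a median of 0.88. CTSK had a log2 fold change of 1.83 ± 0.44 (SE) and an edgeR adjusted p of 0.0272. MITF, a transcription factor of the lineage, was at 2.05, DCSTAMP, a fusion protein, at 1.58, and CSF1R, the receptor of the growth factor CSF1, at 1.07, with adjusted p of 0.0363, 0.0343 and 0.0326, and MITF overlapped between the groups. CSF1R had an adjusted p of 0.0521 when libraries were scaled by their totals alone. NFATC1, the factor that FOS partners in this lineage, was at 0.44 ± 0.22 (SE) with an adjusted p of 0.198, and FOS itself at 0.20. At an unadjusted p below 0.05, 8 were higher and 0 lower, beside 15.3% and 16.6% of all genes. DESeq2 called 8 higher and 0 lower, beside 9.74% and 11%. The count called higher was 2 without Perthes rabbit 1, 1 without control rabbit 3, and 0 without Perthes rabbit 3, Perthes rabbit 5, control rabbit 1 or control rabbit 2. In the pathway annotation deposited with the counts, consulted after the values were seen, osteoclast differentiation holds FOS, FOSB, FOSL1, FOSL2 and JUN, and 11 of its 126 tested genes were called higher and 4 lower, beside 6.21% and 8.86% of all genes. IL-17 signaling holds FOS, FOSB, FOSL1 and JUN, with 6 higher and 7 lower of 71, and MAPK signaling holds FOS and JUN, with 20 higher and 19 lower of 253.

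Stress and heat shock genes were mixed. Of 21 tested, 2 were called higher and 1 lower, beside 6.21% and 8.86% of all genes. The median log2 fold change of the list was 0.15. HMOX1, which breaks down heme, rose to 262 ± 138 CPM in the Perthes rabbits (SD, n = 5) from 49.3 ± 8.65 CPM in the controls (SD, n = 3), with an edgeR adjusted p of 0.0165. HSPB1, a small heat shock protein, rose by 1.74 on the log2 scale with an adjusted p of 0.0182. ASNS, the asparagine synthetase induced by amino acid shortage through ATF4, fell by 2.38 on the log2 scale, to 8.46 ± 5.90 CPM in the Perthes rabbits (SD, n = 5) from 44.0 ± 6.67 CPM in the controls (SD, n = 3), with an adjusted p of 0.0153. The part of the lower neutrophil and erythroid sums in it was not tested. Without control rabbit 1 or control rabbit 2, 0 of the 21 were called.

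**Figure D4:**
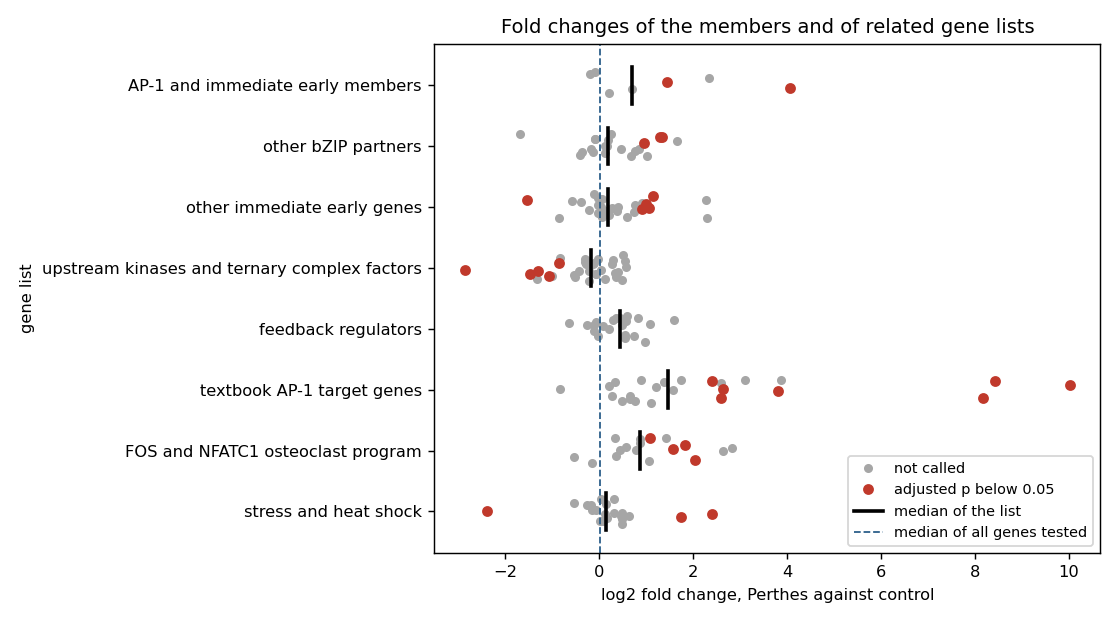
Log2 fold change (Perthes against control) of each gene of the members and of the 7 related lists, with called genes in red, the median of each list as a black bar and the median of all genes tested as a dashed line. The target genes have the highest median, 1.47, and the upstream kinases the lowest, -0.17; the list named FOS and NFATC1 osteoclast program also holds genes upstream of FOS and stromal signals.

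**Figure D5:**
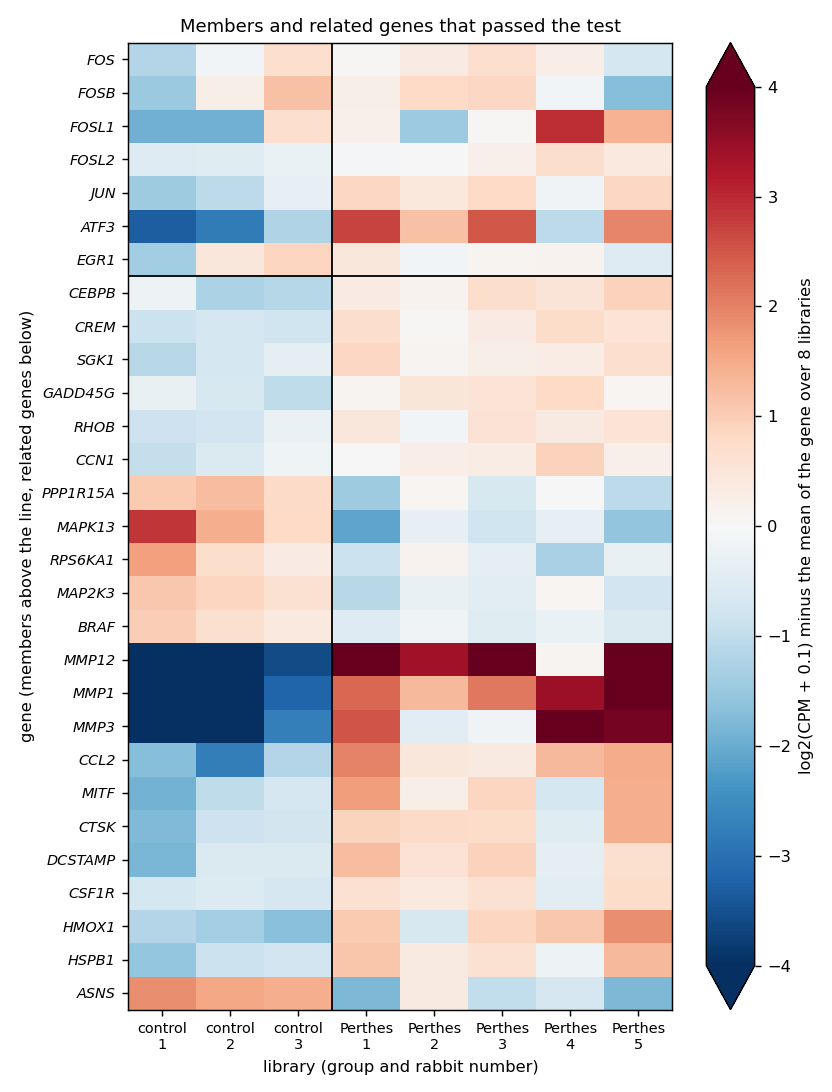
Log2(CPM + 0.1) of the members (above the line) and of the named related genes that passed the test (below), centred on the mean of each gene over the 8 libraries, with colours limited to 4 on either side of 0. Perthes rabbit 4 is lower than the other Perthes rabbits for ATF3, JUN, MMP12 and CTSK and higher for FOSL1, FOSL2 and MMP3.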

How the data were processed

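Total RNA-seq of 8 rabbit femoral heads (Perthes n = 5, control n = 3) was analysed. Per the study's methods, the authors removed ribosomal RNA from 5 µg of RNA per library, prepared directional libraries and aligned paired reads (HISAT2 2.0.4) against an NCBI rabbit assembly; gene quantification is credited to both RSEM 1.1.17 and HTSeq 1.99.2. The deposited values are expected counts, of which up to 10.7% per library were not whole, and were rounded here. The deposited gene names were used. The table repeats the 8 libraries in 8 further per-sample columns, which were not used, nor were the authors' columns of fold changes and p-values.

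Genes were filtered with filterByExpr, scaled by TMM and tested with edgeR 4.0.16 (quasi-likelihood, R 4.3.3, Benjamini-Hochberg over 15305 genes, called at an adjusted p below 0.05); standard errors were derived from the F statistic. The common biological coefficient of variation was 0.361. DESeq2 1.42.0 was the alternative test. Single values were tested by exact two-sided permutation, and ratios used a prior count of 0.5, log2 CPM a prior count of 2. No gene lengths were available, so levels were not compared between genes. The scripts were tested on simulated data. Members and lists were chosen with earlier results of these data known. From each list, up to 4 genes per direction with the largest fold changes among those called were named, or the 2 largest values where fewer than 2 were called. The third control, which its title also numbers 2 but its code numbers 3, is called control rabbit 3. Alternatives were other scalings, low-count filters, DESeq2, the replicate number as a block, thresholds and leaving out each library. Some genes of the lists are counted but not reported here by name.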

Additional observations from a re-analysis of the deposited data

Results flagged for a closer look

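Dixon's test for a single far value was applied to the 5 Perthes libraries in 43 sets of values, those of the members on the CPM and log2 scales, of the named genes of the related lists and of the ratios. It marked 4 sets. The nominal rate of about 1 in 20 holds for independent sets of normally distributed values. These sets share libraries and are mostly on the linear CPM scale, so the 4 are not compared with that rate. Perthes rabbit 4 was high for CCN1 at 325.2 CPM, for SOCS3 at 63.31 CPM and for MMP3 at 131 CPM. MMP1 was high in Perthes rabbit 5 at 257.5 CPM. None of the 7 AP-1 and immediate early members was marked.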

How the results depend on the processing

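With 1 library left out, the AP-1 and immediate early members called higher numbered 0 to 3, those called lower 0 and those with groups apart 3 to 4. Of the ratios 0 passed, but none could, because the divisions of the libraries left allow no permutation p below 0.05. For higher and lower calls, the other lists gave 0 to 4 and 0 to 1 (basic leucine zipper), 0 to 5 and 0 to 2 (other immediate early genes) and 0 to 1 and 0 to 7 (kinases). The remaining lists gave 0 to 1 and 0 to 1 (feedback), 0 to 8 and 0 to 1 (targets), 0 to 6 and 0 (osteoclast) and 0 to 2 and 0 to 1 (stress). The study's thresholds, an adjusted p below 1e-05 and a log2 fold change beyond 2, left 0 members called by edgeR and 1 higher and 0 lower by DESeq2, which was ATF3 at 4.07 with an adjusted p of 4.95e-07 (DESeq2 with these thresholds was chosen after seeing the data). DESeq2 called 3 members higher, and in the lists 1 basic leucine zipper gene lower, 8 other immediate early genes higher, 1 kinase higher and 9 lower, 3 feedback regulators higher and 1 lower, and 8 osteoclast genes higher. Scaling by library totals called 1 basic leucine zipper gene and 8 kinases lower. DESeq2's size factors within edgeR and both filters kept the member count of 2, and FOSL1 was not tested when at least 10 counts were asked of every library.

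With the replicate number as a block, 0 members were called in either direction. There were also 0 calls in each of the 7 lists and 0 over all genes, with 1504 higher and 1648 lower at an unadjusted p below 0.05. ATF3 was then at 4.54 (edgeR adjusted p = 0.0933) and JUN at 1.61 (0.118). Perthes rabbits 4 and 5 share no number with a control. The block fit therefore compares rabbits 1 to 3 of each group alone, with few libraries left to measure the spread. No label says that the numbers pair the rabbits. Deviations from the group means of same-numbered libraries correlated at -0.32, 0.16 and -0.24 across genes. For other-numbered libraries the values ran from -0.31 to 0.44. The deviations within a group sum to 0 for each gene, so these values are not independent and cannot show whether the numbers pair rabbits. With 1 library left out, FOS ran from -0.15 (without control rabbit 1) to 0.73, FOSB from -0.54 to 0.62 (without control rabbit 3; 0.15 without Perthes rabbit 5) and EGR1 from -0.62 to 0.26 (without control rabbit 3), so each turned sign. The block turned FOSB to 0.64 and EGR1 to 0.14. The cause of these changes was not tested. Depth limits FOSL1 alone among the members.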

Other observations

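Perthes rabbit 4 held most of the level of several inducible genes. It was the highest Perthes library for 15 of the 30 other immediate early genes tested, 50.0%, and for 13 of the 24 target genes, 54.2%, beside 21.8% of all genes. PTGS2, the inducible cyclooxygenase, was 12.2, 7.94, 4.85, 297 and 57.8 CPM in Perthes rabbits 1 to 5 and 3.57 to 7.18 CPM in the controls. LIF, a cytokine of the IL-6 family, was 4.09, 3.78, 4.15, 49.4 and 5.24 CPM and 1.04 to 2.93 CPM, and IER3, an immediate early gene, was 9.02, 5.95, 4.92, 54.8 and 11.4 CPM and 2.68 to 4.52 CPM. None of these 3 was called by edgeR, with adjusted p from 0.0974 to 0.129. In the same library ATF3 and JUN were the lowest of the Perthes group.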
